A study of Mus musculus with 6 samples.

Results

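The genes described here are 10 imprinted genes of the mouse, Ndn, Peg3, Snrpn, Meg3, H19, Cdkn1c, Dlk1, Grb10, Plagl1 and Nnat. They were chosen by name, with earlier results of these data known, and all 10 are among the 16415 genes listed in the deposited table. Bulk messenger RNA was sequenced from the trigeminal ganglion, which houses the sensory neurons of the face together with satellite glia, Schwann cells, vessels and connective tissue. There are 6 libraries, all of wild-type (WT) genotype, 3 from ganglia treated with SETDB2-up and 3 from ganglia treated with NC-up. The labels neither spell out these treatment names nor say how the treatment was given, and they give no age, sex or strain. Nothing in them says that the 3 libraries of a group came from separate animals, so each p-value measures the spread between libraries, which may be technical.

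In an imprinted gene, only the copy inherited from 1 parent is transcribed in most tissues, and the other copy is kept silent by DNA methylation and by histone marks at a control region set in the germ line. The genes lie in clusters, in which a control region can govern several protein-coding genes and noncoding RNAs together. Many imprinted genes act on growth, the cell cycle and the insulin-like growth factor pathway before birth, fall to low levels after it, and stay active in neurons and in connective tissue. SETDB2, for which 1 treatment is named, is a histone methyltransferase.

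Values are read counts per gene that the authors divided by a factor per library, called normalised counts below. The libraries hold 20355707 to 23501386 reads in SETDB2-up and 19334997 to 23395693 in NC-up. Fold changes are SETDB2-up over NC-up, as differences of log2(normalised count + 1) with a standard error, and a gene rose or fell where its limma p, adjusted over all 16387 tested genes, was under 0.05. Setdb2 itself had 113, 97.6 and 104 normalised counts in SETDB2-up libraries 1, 2 and 3 and 69.9, 58.4 and 71.5 in NC-up libraries 1, 2 and 3 (log2 fold change 0.65 ± 0.19, adjusted p = 0.0253). That call was lost under the GC correction described below (0.49, adjusted p = 0.137) and without NC-up library 2 (0.56). It was also lost without SETDB2-up library 1 (0.60), 2 (0.70) or 3 (0.66), and without SETDB2-up libraries 1 and 2 together (0.65). A list of 11 liver genes summed to 2797 and 6608 normalised counts in SETDB2-up libraries 1 and 2, 77.6 in SETDB2-up library 3 and 46.0 to 59.0 in NC-up. The fold changes of the 10 genes and of the other genes named with a call were also computed without SETDB2-up libraries 1 and 2. That setting leaves library 3 as the only one of SETDB2-up, so its p-values rest on the spread within NC-up. In bulk samples, fewer cells of a type and less RNA per cell cannot be told apart.

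The stretches around the annotated starts of 5 of the genes are shown because they carry letters that these genes share. Each window is 300 bases long, from 250 before to 50 after the start, read 5′ to 3′ on the gene's strand, from RefSeq on GRCm38.p6. Capitals mark CGCATGCG, the letters of an NRF1-type site, in Ndn (chr7:62348027-62348326, plus strand), Snrpn (chr7:60005150-60005449, minus strand) and Nnat (chr2:157559828-157560127, plus strand). Capitals mark TGACGTCA, the letters of the full cAMP response element, in Peg3 (chr7:6730370-6730669, minus strand) and Meg3 (chr12:109540746-109541045, plus strand).
Ndn: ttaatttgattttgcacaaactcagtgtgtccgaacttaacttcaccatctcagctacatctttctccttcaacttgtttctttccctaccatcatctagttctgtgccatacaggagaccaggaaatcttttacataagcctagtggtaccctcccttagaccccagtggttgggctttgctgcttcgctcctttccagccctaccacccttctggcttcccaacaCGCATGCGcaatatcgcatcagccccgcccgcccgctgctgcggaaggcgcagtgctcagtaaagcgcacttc
Snrpn: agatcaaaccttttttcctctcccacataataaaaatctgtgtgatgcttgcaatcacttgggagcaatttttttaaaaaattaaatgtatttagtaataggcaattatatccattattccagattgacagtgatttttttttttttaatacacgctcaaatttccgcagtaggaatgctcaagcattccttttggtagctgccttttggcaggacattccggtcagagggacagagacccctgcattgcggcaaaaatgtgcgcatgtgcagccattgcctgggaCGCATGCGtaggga
Nnat: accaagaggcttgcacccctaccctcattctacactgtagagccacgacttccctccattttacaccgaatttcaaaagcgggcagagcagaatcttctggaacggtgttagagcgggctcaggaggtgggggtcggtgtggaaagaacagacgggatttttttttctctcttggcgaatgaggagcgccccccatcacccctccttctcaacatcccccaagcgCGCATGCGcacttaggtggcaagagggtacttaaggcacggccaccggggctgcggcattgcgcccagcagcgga
Peg3: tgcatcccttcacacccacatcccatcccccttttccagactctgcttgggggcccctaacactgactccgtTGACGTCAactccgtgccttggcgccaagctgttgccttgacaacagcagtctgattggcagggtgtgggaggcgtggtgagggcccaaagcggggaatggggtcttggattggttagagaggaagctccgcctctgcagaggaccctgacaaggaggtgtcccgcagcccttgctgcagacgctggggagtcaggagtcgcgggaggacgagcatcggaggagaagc
Meg3: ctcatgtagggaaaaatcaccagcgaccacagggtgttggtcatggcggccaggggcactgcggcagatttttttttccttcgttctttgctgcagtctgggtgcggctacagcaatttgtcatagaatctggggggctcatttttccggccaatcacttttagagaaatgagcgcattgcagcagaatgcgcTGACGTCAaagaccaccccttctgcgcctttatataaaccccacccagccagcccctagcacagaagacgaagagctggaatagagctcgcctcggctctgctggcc

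RefSeq windows were found for 8 of the 10 genes, 13 windows in all, and none for H19 and Cdkn1c. CGCATGCG lies in 6 of the 13, those of Ndn and Nnat and all 4 of Snrpn, against 1.87% of all 32851 windows of the same length. Counted by gene, it lies in 3 of the 8. It begins at position -23 in Ndn, at -25 in Nnat and at 37 in the Snrpn window shown, counted from the start as 1. TGACGTCA lies in 2 windows, at -178 in Peg3 and at -57 in Meg3, against 1.79% of all windows. Both letter strings read the same on both strands, overlap no other motif searched, and were picked after the windows had been read. Their counts therefore cannot be read as an excess over the shares of all windows. TGCCGC, the letters bound by the imprint-keeping factor ZFP57, lies on either strand in 5 of the 13 windows, in Nnat, Plagl1 and 1 window each of Snrpn, Grb10 and Meg3, against 11.6% of all windows. The 3 genes with CGCATGCG differed in their calls: Ndn rose, Nnat fell and Snrpn did not pass the test.

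Of the 10 genes, 2 rose in SETDB2-up (Ndn and Peg3), 3 fell (H19, Nnat and Cdkn1c) and 5 did not pass the test (Snrpn, Meg3, Dlk1, Grb10 and Plagl1). Over all genes tested, 7.71% rose and 8.71% fell, 16.4% in all. The 10 genes and the lists below were chosen with earlier results of these data known, so their counts cannot be read as an excess over these shares. The median log2 fold change was -0.06 over the 10 genes and 0.00 over all genes. The 3 SETDB2-up values and the 3 NC-up values did not overlap in 5 of the 10 genes, the same 5 that passed, and in 33.3% of all genes. All 10 passed the filter on low values. Together they held 0.246%, 0.254% and 0.203% of the reads in SETDB2-up libraries 1, 2 and 3 and 0.251%, 0.239% and 0.218% in NC-up libraries 1, 2 and 3, and the plot of normalised counts by library shows each gene on its own scale.

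**Figure D1:**
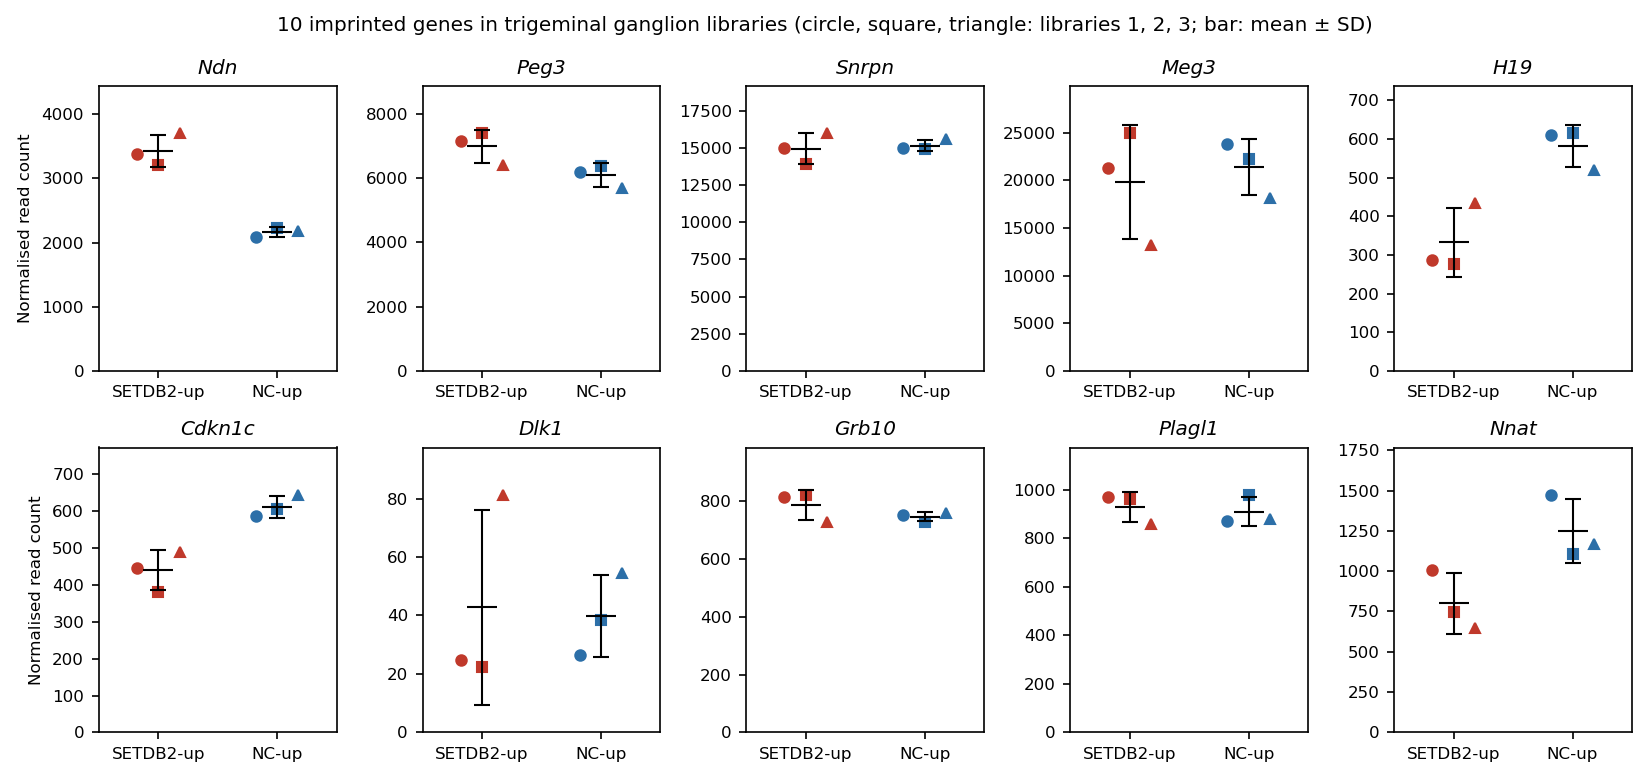
Normalised read counts (vertical axes, linear, from 0) of the 10 imprinted genes in the 3 SETDB2-up libraries (red, left) and the 3 NC-up libraries (blue, right) of trigeminal ganglion, with circle, square and triangle for libraries 1, 2 and 3 and bars for mean ± SD. The groups are apart in Ndn, Peg3, H19, Cdkn1c and Nnat, and SETDB2-up library 3 is the lowest for Meg3 and the highest for Dlk1.

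Ndn encodes necdin, a MAGE-family protein that holds back the cell cycle in young neurons and favours their survival, and it is read from the paternal copy. It is Entrez gene 17984, at chr7:62348277-62349928 on the plus strand of GRCm38, and had the smallest adjusted p of the 10 genes. Ndn had 3373, 3214 and 3698 normalised counts in SETDB2-up libraries 1, 2 and 3, against 2081, 2229.5 and 2184 in NC-up libraries 1, 2 and 3. Every SETDB2-up library was above every NC-up library. The difference was 1.58-fold (log2 fold change 0.66 ± 0.06, adjusted p = 2.24e-06). It passed the test in all 17 alternative settings, with log2 fold changes of 0.54 to 0.77.

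Snrpn encodes SmN, a core protein of the splicing particles that neurons carry, and shares its cluster and its paternal expression with Ndn. It is Entrez gene 20646, at chr7:59982495-60450177 on the minus strand. Snrpn had 14975, 13886 and 15964 normalised counts in SETDB2-up libraries 1, 2 and 3, against 14974, 14923 and 15570.3 in NC-up libraries 1, 2 and 3. The groups overlapped, with the lowest and the highest value both in SETDB2-up, and the log2 fold change was -0.02 ± 0.06 (adjusted p = 0.829). The ratio of Ndn to Snrpn reads was 0.225, 0.231 and 0.232 in SETDB2-up libraries 1, 2 and 3. It was 0.139, 0.149 and 0.140 in NC-up libraries 1, 2 and 3. The difference between the 2 genes was not tested. Snurf and Snhg14 lie over Snrpn on the same strand and hold 90551 and 74811 reads beside its 94441. The sources used here do not say how shared reads were divided among them, so the level of Snrpn is uncertain. Snurf had a log2 fold change of -0.04 ± 0.06 and Snhg14 of 0.00 ± 0.06, both short of the test.

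Nnat encodes neuronatin, a small membrane protein of the endoplasmic reticulum that is abundant in developing neurons, and is read from the paternal copy. It is Entrez gene 18111, at chr2:157560078-157562525 on the plus strand, inside Blcap, which runs on the opposite strand. Nnat had 1009, 746 and 646 normalised counts in SETDB2-up libraries 1, 2 and 3, against 1473, 1108 and 1167 in NC-up libraries 1, 2 and 3. All SETDB2-up values were below all NC-up values, though library 1 was the highest in each group. Nnat was 1.58-fold lower in SETDB2-up (log2 fold change -0.66 ± 0.12, adjusted p = 0.00159). The call was lost under a correction for GC content (-0.46, adjusted p = 0.0595). Blcap held 6197 reads beside 6372 of Nnat, and the sources used here do not say whether the counting used strand. Blcap, which codes for a small protein first described in bladder cancer, had 956, 896 and 939.6 normalised counts in SETDB2-up libraries 1, 2 and 3, against 1022, 1074 and 1047 in NC-up libraries 1, 2 and 3. Its groups did not overlap, but its log2 fold change of -0.17 ± 0.07 did not pass the test (adjusted p = 0.107).

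Peg3 and Plagl1 encode zinc-finger proteins that bind DNA and are read from the paternal copy. Peg3 (Entrez gene 18616, chr7:6703892-6730462, minus strand) takes part in cell death signalling and in maternal care, and Plagl1 (Entrez gene 22634, chr10:13090832-13131694, plus strand) regulates other imprinted genes and arrests the cell cycle. Peg3 had 7164, 7388 and 6415 normalised counts in SETDB2-up libraries 1, 2 and 3, against 6199.5, 6391 and 5684 in NC-up libraries 1, 2 and 3. The lowest SETDB2-up library stood only just above the highest NC-up library. The rise was 1.15-fold (log2 fold change 0.20 ± 0.06, adjusted p = 0.0383). It was lost under the GC correction (0.12, adjusted p = 0.258), without SETDB2-up libraries 1 and 2 (0.08, adjusted p = 0.726), and without 5 of the 6 single libraries. Those values were 0.18 without SETDB2-up library 1, 0.16 without SETDB2-up library 2, and 0.21, 0.23 and 0.15 without NC-up libraries 1, 2 and 3 (adjusted p from 0.0564 to 0.177). The antisense gene Peg3os held 1919 reads beside 40878 of Peg3.

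Plagl1 had 972, 961 and 859 normalised counts in SETDB2-up libraries 1, 2 and 3, against 869.8, 979 and 880.5 in NC-up libraries 1, 2 and 3. The groups overlapped throughout, with the lowest value in SETDB2-up and the highest in NC-up. The log2 fold change was 0.03 ± 0.08 (adjusted p = 0.817).

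H19 is a noncoding RNA read from the maternal copy, best known as the partner of Igf2, with which it shares enhancers on opposite parental chromosomes. It is Entrez gene 14955, at chr7:142575530-142578146 on the minus strand. H19 had 286, 277 and 434 normalised counts in SETDB2-up libraries 1, 2 and 3, against 610.2, 614 and 518 in NC-up libraries 1, 2 and 3. The groups did not overlap, and SETDB2-up library 3 lay nearest to NC-up. H19 was 1.78-fold lower in SETDB2-up (log2 fold change -0.83 ± 0.14, adjusted p = 0.00048). Of the 17 alternative settings, the fall missed the threshold in 1, the one without SETDB2-up libraries 1 and 2 (-0.42, adjusted p = 0.126).

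H19 also carries within it the hairpin of miR-675, whose mature sequences are shown, from RefSeq on GRCm38.p6, because they are what the RNA encodes in place of a protein; capitals mark the seed, bases 2 to 8. The 2 arms lie at chr7:142577112-142577133 (5p) and chr7:142577078-142577099 (3p), minus strand, and their seeds differ. The table has no row for this microRNA, and it was not analysed here.
miR-675-5p: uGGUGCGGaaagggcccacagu
miR-675-3p: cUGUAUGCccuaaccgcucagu

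Igf2, the fetal growth factor on the other side of the H19 control region, fell with it. It had 1053, 888 and 802 normalised counts in SETDB2-up libraries 1, 2 and 3, against 1814, 1663 and 1512 in NC-up libraries 1, 2 and 3. The groups were far apart (log2 fold change -0.87 ± 0.09, adjusted p = 5.46e-06), and the call held in all 17 alternative settings. The ratio of H19 to Igf2 reads was 0.272, 0.312 and 0.541 in SETDB2-up libraries 1, 2 and 3, against 0.336, 0.369 and 0.343 in NC-up libraries 1, 2 and 3. That ratio was thus higher in SETDB2-up library 3 than in any NC-up library, and lower than in any of them in SETDB2-up libraries 1 and 2. H19 and Igf2 are known from muscle and connective tissue. A list of 8 measured skeletal muscle genes summed to 892 to 1013 normalised counts in SETDB2-up and to 2000.5 to 2131 in NC-up, and 4 of the 8 fell and none rose (median log2 fold change -0.96). A list of 10 fibroblast genes summed to 19573 to 21954 in SETDB2-up and to 21515 to 25823 in NC-up, and 4 fell and 1 rose (median -0.18). Beside these counts, 7.71% of all tested genes rose and 8.71% fell. The part of muscle and connective tissue in the fall of H19 and Igf2 was not tested.

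Meg3 is a noncoding RNA read from the maternal copy of the cluster that holds Dlk1 on the paternal one, and it is abundant in neurons. It is Entrez gene 17263, at chr12:109540996-109571729 on the plus strand. Meg3 had 21277, 24935 and 13224 normalised counts in SETDB2-up libraries 1, 2 and 3, against 23834, 22218 and 18130.3 in NC-up libraries 1, 2 and 3. Library 3 was the lowest of each group. SETDB2-up held both the highest and the lowest value, and the log2 fold change was -0.15 ± 0.15 (adjusted p = 0.520). Without SETDB2-up library 3 it was 0.12 and short of the test. Without SETDB2-up libraries 1 and 2, which leaves library 3 as the only one of SETDB2-up, it was -0.68.

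Meg3 in SETDB2-up library 3 was 0.572 times the mean of SETDB2-up libraries 1 and 2. Over 12240 genes with a mean of at least 100 normalised counts the median of this ratio was 1.01, with 0.815 and 1.19 as the 5th and 95th percentiles, and 0.204% of genes lay below Meg3. In its cluster the ratio was 0.647 for Rtl1 and 0.565 for Mirg, below that range, 0.857 for Rian, inside it, and 3.45 for Dlk1, above it. Noncoding RNAs elsewhere lay on both sides, with ratios of 0.534 for the imprinted Kcnq1ot1, 0.589 for Malat1 and 0.777 for Neat1, both kept in the nucleus and not imprinted, 0.813 for Peg3os, 1.08 for Snhg14, 1.54 for H19 and 1.64 for the low Hymai. Meg3 is overlapped on the opposite strand by Rtl1, with 27662 reads beside its 127712. Rian, the maternally read RNA that hosts many small nucleolar RNAs, had 5893, 5912 and 5060.4 normalised counts in SETDB2-up libraries 1, 2 and 3, against 4776, 4594 and 4532 in NC-up libraries 1, 2 and 3. It rose (log2 fold change 0.28 ± 0.06, adjusted p = 0.00604), so that 2 maternal RNAs of the same cluster differed in their call; the difference between them was not tested. Rtl1 overlaps Rian as well, on the opposite strand, with 27662 reads beside 32061 of Rian. The rise of Rian was lost under the GC correction (0.02, adjusted p = 0.877) and without SETDB2-up libraries 1 and 2 (0.13, adjusted p = 0.454).

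**Figure D2:**
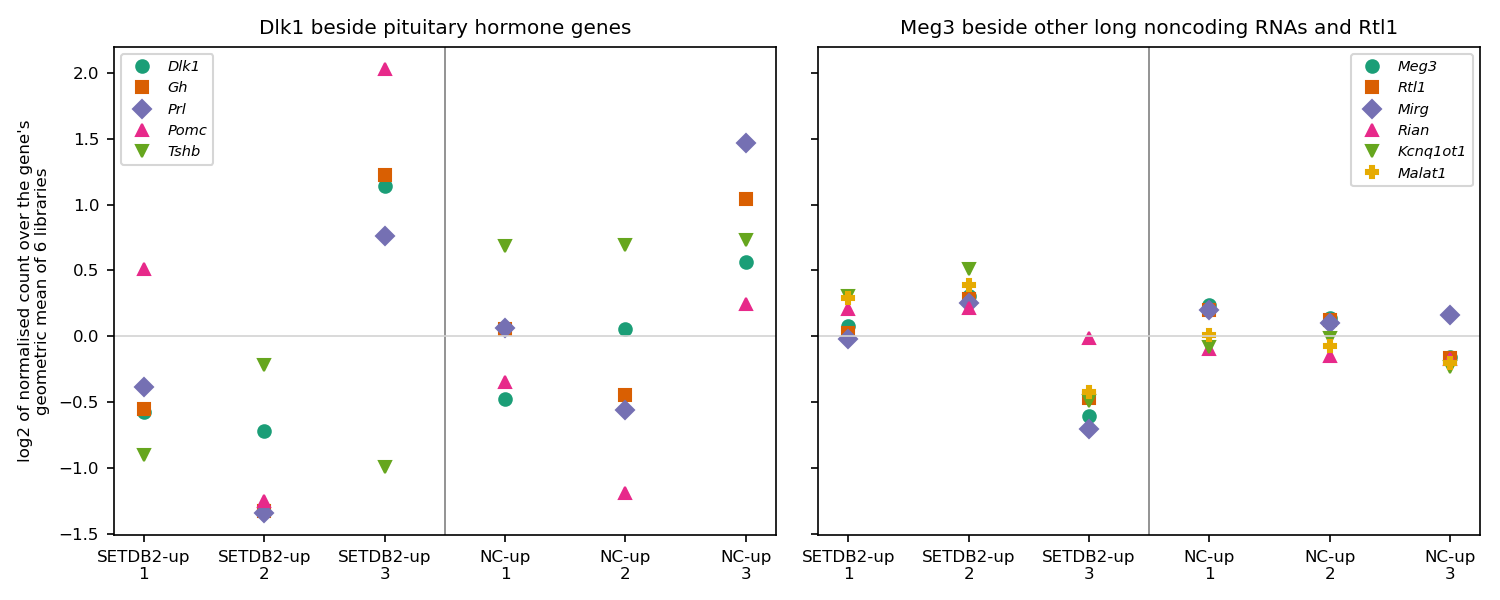
Normalised counts per library (horizontal axis, SETDB2-up 1 to 3 and then NC-up 1 to 3) as log2 of the ratio to the gene's geometric mean over 6 libraries, for Dlk1 with 4 pituitary hormone genes on the left and for Meg3 with Rtl1 and 4 other noncoding RNAs on the right. Dlk1, Gh and Prl were high in library 3 of both groups, and Meg3, Rtl1, Mirg, Kcnq1ot1 and Malat1 were lowest in SETDB2-up library 3. Within NC-up, library 3 was also the lowest for Meg3, Rtl1, Kcnq1ot1 and Malat1, but not for Mirg.

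Cdkn1c, Grb10 and Dlk1 act directly on growth. Cdkn1c encodes p57, an inhibitor of cyclin-dependent kinases that takes dividing precursors out of the cell cycle, and is read from the maternal copy (Entrez gene 12577, chr7:143458339-143461059, minus strand). Cdkn1c had 446, 381 and 489 normalised counts in SETDB2-up libraries 1, 2 and 3, against 586, 605 and 644 in NC-up libraries 1, 2 and 3. All SETDB2-up values were lower than all NC-up values. Cdkn1c was 1.40-fold lower in SETDB2-up (log2 fold change -0.48 ± 0.10, adjusted p = 0.00286). The call was lost under the GC correction (-0.27, adjusted p = 0.0954) and without SETDB2-up libraries 1 and 2 (-0.32, adjusted p = 0.242).

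Grb10 encodes an adaptor that holds back the insulin and IGF1 receptors; it is read from the maternal copy in most tissues and from the paternal copy in neurons (Entrez gene 14783, chr11:11930499-12037428, minus strand). Grb10 had 815, 822 and 728 normalised counts in SETDB2-up libraries 1, 2 and 3, against 753, 728 and 758 in NC-up libraries 1, 2 and 3. SETDB2-up library 3 lay within the NC-up range and the other two above it, and the log2 fold change was 0.08 ± 0.08 (adjusted p = 0.550). The counts do not separate the parental copies, so nothing here bears on which copy was read.

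Dlk1 encodes a membrane protein with EGF-like repeats, related to the Notch ligands, that holds back fat cell differentiation and is abundant in endocrine glands (Entrez gene 13386, chr12:109452485-109463336, plus strand). It was the lowest of the 10 genes, with 139 reads in SETDB2-up and 126 in NC-up over 3 libraries each. Dlk1 had 24.7, 22.4 and 81.2 normalised counts in SETDB2-up libraries 1, 2 and 3, against 26.5, 38.3 and 54.5 in NC-up libraries 1, 2 and 3. Library 3 was the highest of each group, and SETDB2-up held both the highest and the lowest value. The log2 fold change was -0.09 ± 0.40 (adjusted p = 0.903) and its sign turned in 7 of 17 alternative settings.

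The pituitary gland lies beside the trigeminal ganglion and expresses Dlk1. Of 9 anterior pituitary markers, 4 are in the table, and Cga, Lhb, Fshb, Pou1f1 and Pitx1 are not. Growth hormone, Gh, had 796, 466 and 2729.7 normalised counts in SETDB2-up libraries 1, 2 and 3, against 1211, 855 and 2401 in NC-up libraries 1, 2 and 3. Gh was thus highest in library 3 of each group, as were Prl and Pomc. The 4 markers summed to 561 to 3242 normalised counts in SETDB2-up and to 1002 to 2869 in NC-up. The part of pituitary RNA in the level of Dlk1 was not tested. Tshb, the thyrotropin subunit, was the marker of this list that passed the test, with 9.50, 15.3 and 8.92 normalised counts in SETDB2-up libraries 1, 2 and 3 and 28.6, 28.7 and 29.5 in NC-up libraries 1, 2 and 3 (log2 fold change -1.33, adjusted p = 0.0284). That call was lost without SETDB2-up library 1 (-1.24) or 3 (-1.20) or NC-up library 1 (-1.34), 2 (-1.33) or 3 (-1.32), and without SETDB2-up libraries 1 and 2 (-1.59, adjusted p = 0.18).

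Per kilobase of merged exons, the 10 genes spanned a wide range of levels, given here as mean ± SD of normalised counts per kb over 3 libraries. Snrpn was the highest, at 6921 ± 481 in SETDB2-up and 7019.9 ± 167 in NC-up, with the counting limit named above. Meg3 followed at 1095 ± 331 in SETDB2-up and 1183 ± 163 in NC-up, and Ndn at 928 ± 66.7 in SETDB2-up and 586 ± 20.6 in NC-up. The spread of Meg3 within SETDB2-up reached into the range of Ndn.

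The middle of the order held Nnat, at 437 ± 103 in SETDB2-up and 683 ± 107 in NC-up, and Peg3, at 525 ± 38.3 in SETDB2-up and 457 ± 27.4 in NC-up. Cdkn1c was at 215 ± 26.6 in SETDB2-up and 299.9 ± 14.4 in NC-up, and H19 at 135 ± 35.8 in SETDB2-up and 236 ± 22.0 in NC-up. Plagl1 (119 ± 7.94 in SETDB2-up and 116 ± 7.68 in NC-up), Grb10 (86.7 ± 5.75 in SETDB2-up and 82.1 ± 1.78 in NC-up) and Dlk1 (7.56 ± 5.89 in SETDB2-up and 7.03 ± 2.49 in NC-up) closed it. The ranges over the 6 libraries overlapped between the neighbours Meg3 and Ndn, Ndn and Nnat, Nnat and Peg3, Cdkn1c and H19, and H19 and Plagl1, so their order is not settled. Nnat and Peg3 also changed places when the longest transcript was used as the length. For Ndn the length matters too, since the annotation gives 3694 bases of exon and the table a span of 1652 bases.

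The clusters around the 10 genes were then read from a list of 28 neighbours, of which 23 were in the table: 3 rose, 2 fell and 18 did not pass the test, with a median log2 fold change of -0.04. The shares over all tested genes were 7.71% rising and 8.71% falling. In the cluster of Ndn and Snrpn, Ube3a, the ubiquitin ligase read from the maternal copy in neurons, rose (log2 fold change 0.36 ± 0.07, adjusted p = 0.00201). Ube3a lies under Snhg14 on the opposite strand, with 13001 reads beside 74811, so their reads cannot be told apart if the counting did not use strand. Mkrn3, a ring-finger gene, was at 0.07 ± 0.31 and Atp10a, a phospholipid transporter, at 0.33 ± 0.15, both short of the test. Magel2 and Peg12 are not in the table.

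Usp29, a paternally read ubiquitin protease that starts beside Peg3, had 119, 138 and 143 normalised counts in SETDB2-up libraries 1, 2 and 3, against 98.5, 81.4 and 94.8 in NC-up libraries 1, 2 and 3. It rose (log2 fold change 0.54 ± 0.17, adjusted p = 0.0377) without overlap between the groups. Its neighbours Zim1, at 0.24 ± 0.24, and Zim3, at 0.68 ± 0.33, did not pass the test. Usp29 and Zim3 overlap on opposite strands, with 705 and 198 reads, and may share them if the counting did not use strand.

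In the cluster of Cdkn1c, the transporter gene Slc22a18 fell as well (log2 fold change -0.50 ± 0.14, adjusted p = 0.0207). The other 7 measured neighbours did not pass. Kcnq1ot1, the paternally read RNA that silences this cluster, was at 0.22 ± 0.18, and Kcnq1, the potassium channel gene it runs through, at -0.19 ± 0.34. Without SETDB2-up library 3, Kcnq1ot1 was higher in SETDB2-up (0.52, adjusted p = 0.0093). Tspan32 was at -0.60 ± 0.53, Cd81 at -0.15 ± 0.06, Tssc4 at -0.17 ± 0.10, Nap1l4 at 0.05 ± 0.06 and Osbpl5 at -0.16 ± 0.07. Beside Meg3, Rtl1 was at -0.10 ± 0.12 and Mirg at -0.31 ± 0.18, and beside Grb10, Ddc was at 0.21 ± 0.27 and Cobl at -0.06 ± 0.08, all short of the test. The plot of fold changes by cluster shows that the clusters of Ndn, Peg3, Cdkn1c and Meg3 each held genes that passed and genes that did not. All 4 measured genes of the Peg3 cluster had positive fold changes, but the calls of Peg3 and Usp29 were lost under the GC correction. Differences between genes of a cluster were not tested.

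**Figure D3:**
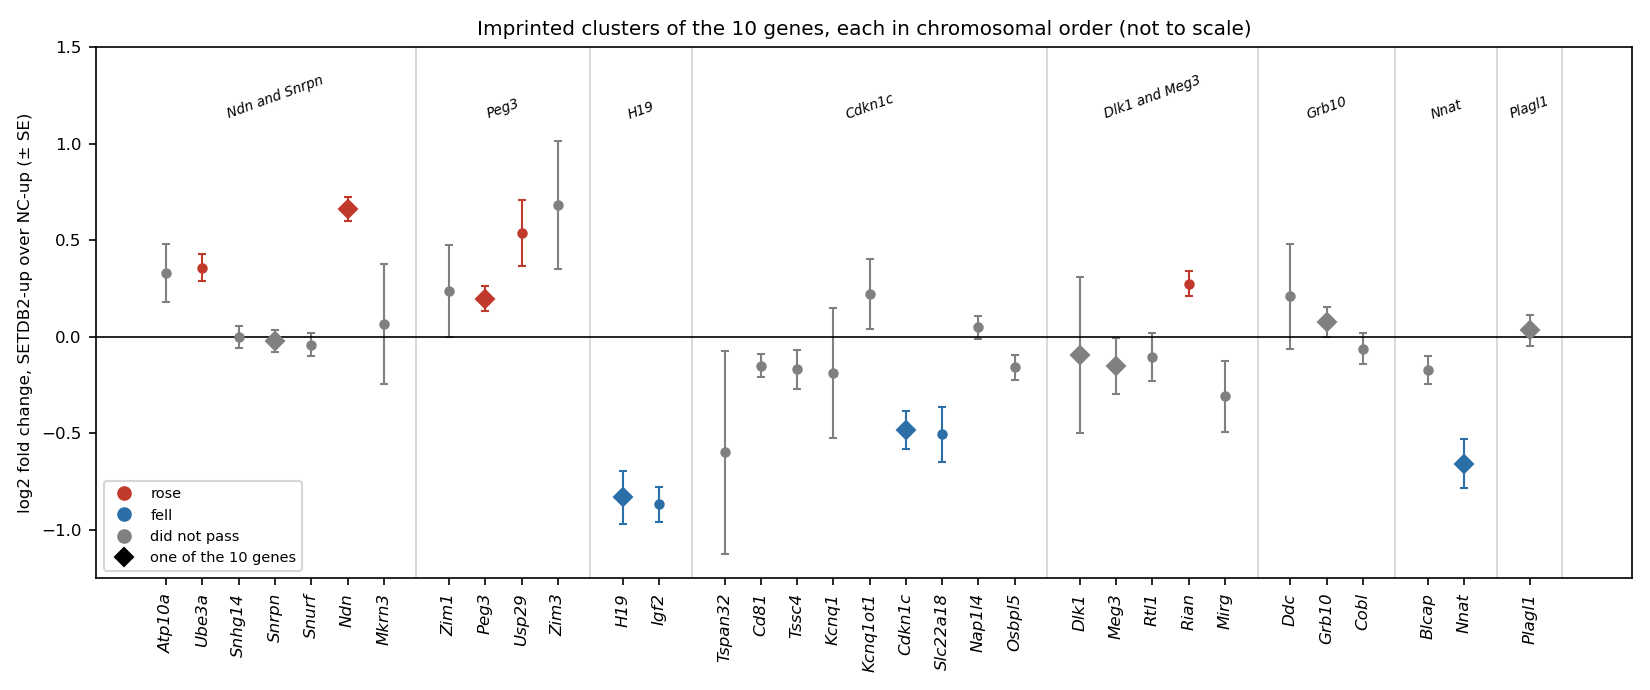
Log2 fold change (vertical axis, SETDB2-up over NC-up, ± SE) of the 10 genes (diamonds) and their measured cluster neighbours (circles), each cluster in chromosomal order and not to scale, with red for a rise, blue for a fall and grey for genes that did not pass. Ndn stands at 0.66 beside Snrpn at -0.02, and H19 (-0.83) and Igf2 (-0.87) fell side by side.

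A wider list named 62 other imprinted genes, the neighbours included, of which 52 were in the table and tested. Of these 7 rose, 4 fell and 41 did not pass the test, with a median log2 fold change of 0.01, beside 7.71% rising and 8.71% falling over all genes. Among the 21 listed in textbooks as paternally read 3 rose and 1 fell, and among the 31 listed as maternally read or mixed, 4 rose and 3 fell. The counts do not show which copy was read, or whether each listed gene is imprinted in the ganglion. Beyond the clusters, the rises were Impact, a regulator of translation under stress (0.24 ± 0.07, adjusted p = 0.0301), and Inpp5f, an inositol phosphatase (0.27 ± 0.07, adjusted p = 0.00916). They also included Ppp1r9a, a neuronal scaffold of protein phosphatase (0.27 ± 0.08, adjusted p = 0.0195), and Copg2, a coat protein of Golgi vesicles (0.22 ± 0.06, adjusted p = 0.0121), which is overlapped on the opposite strand by Mest, with 9729 reads beside 14911. The falls were Dhcr7, the last enzyme of cholesterol synthesis (-0.26 ± 0.07, adjusted p = 0.0135), and Gnas, the stimulatory G protein subunit (-0.27 ± 0.06, adjusted p = 0.00277).

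Many of these calls were lost when 1 library was left out, mostly at fold changes close to those above. Without NC-up library 2 the count of rises was 2, and Usp29 (0.46), Impact (0.20), Inpp5f (0.23), Ppp1r9a (0.25), Copg2 (0.21) and Slc22a18 (-0.44) missed the threshold. Without SETDB2-up library 1 it was 3 rises and 2 falls, and Usp29 (0.62), Impact (0.17), Ppp1r9a (0.20), Copg2 (0.22), Slc22a18 (-0.56) and Dhcr7 (-0.24) missed it. Without SETDB2-up library 2, Usp29 (0.51), Impact (0.26), Ppp1r9a (0.26) and Dhcr7 (-0.25) missed it, and without SETDB2-up library 3, Usp29 (0.49) and Slc22a18 (-0.38). Without NC-up library 1, Impact (0.24) and Dhcr7 (-0.21) missed it, and without NC-up library 3, Usp29 (0.56) and Ppp1r9a (0.26). Igf2, Gnas, Rian and Ube3a passed whichever single library was left out.

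Base composition moved with the fold changes over the whole table. Genes were divided into 10 equal groups by the GC content of the longest transcript. In the group with the lowest GC content 26.9% rose and 1.48% fell, and in the group with the highest 0.322% rose and 34.1% fell. Cdkn1c, at 59.4% GC, and Nnat, at 58.6%, are in the highest group, whose median log2 fold change was -0.23. H19, at 55.8%, lies in the group below it, of which 17.6% fell with a median of -0.14. Ndn, at 44.5%, and Snrpn, at 45.5%, lie in a group of which 12.8% rose with a median of 0.13. Peg3, at 46.8%, lies in the next group, of which 9.22% rose.

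After a correction for GC content, Ndn was still higher in SETDB2-up (log2 fold change 0.54 ± 0.06, adjusted p = 7.41e-05) and H19 lower (-0.71 ± 0.13, adjusted p = 0.0031), while Peg3, Cdkn1c and Nnat missed the threshold with the values given above. With the replicate number as a block beside the same correction, those 3 passed (adjusted p = 0.0339 for Peg3, 0.0366 for Cdkn1c and 4.12e-05 for Nnat). Of the 7 other imprinted genes that rose, none passed after the correction without this block, with Ube3a at 0.12 (adjusted p = 0.286), whose transcript has 36.9% GC. In that setting Igf2 remained lower (-0.74, adjusted p = 0.000207), and Slc22a18, Dhcr7 and Gnas missed the threshold. Snhg14 fell there (-0.32, adjusted p = 0.0119), but its GC content of 31.0% is that of a transcript of 6861 bases, beside 26093 bases of exon. Snrpn, at 45.5% GC, and Snurf, at 51.9%, lie over it and may share its reads. Whether the correction suits its counts was not tested. What produced the trend with GC content was not tested. The plot of fold change against GC content sets the 10 genes beside this trend, and the plot of 4 settings shows what each did to them.

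**Figure D4:**
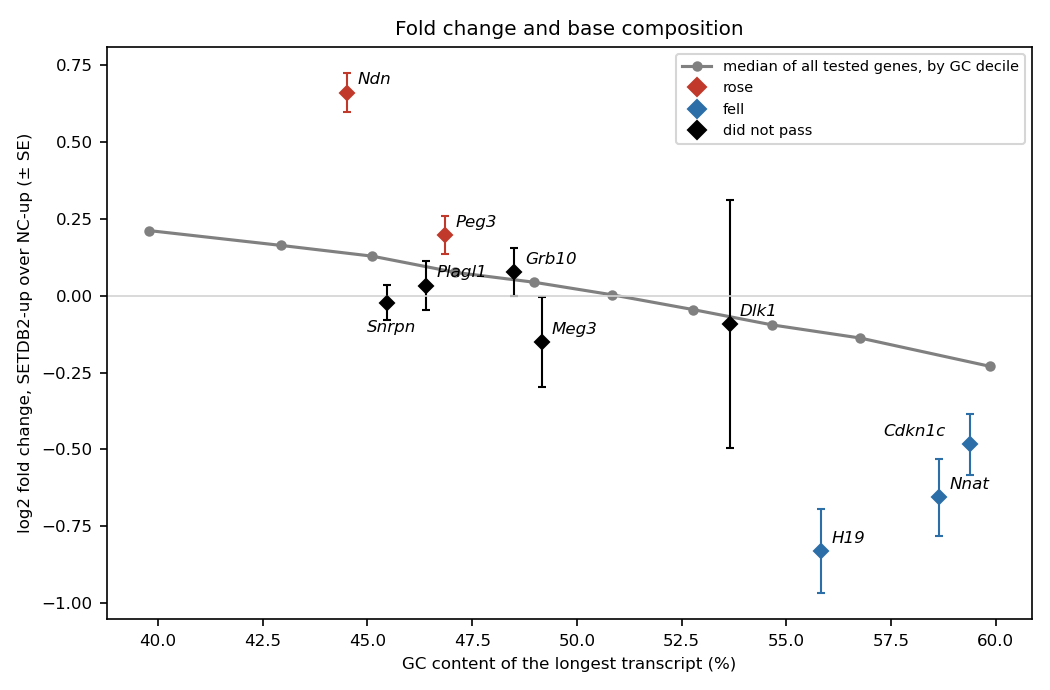
Log2 fold change (vertical axis, SETDB2-up over NC-up, ± SE) against GC content of the longest transcript (horizontal axis, %) for the 10 genes (diamonds), with the median of all tested genes in each of 10 groups by GC content (grey line). The grey line falls with GC content; Ndn lies above it and H19, Nnat and Cdkn1c lie below it.

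**Figure D5:**
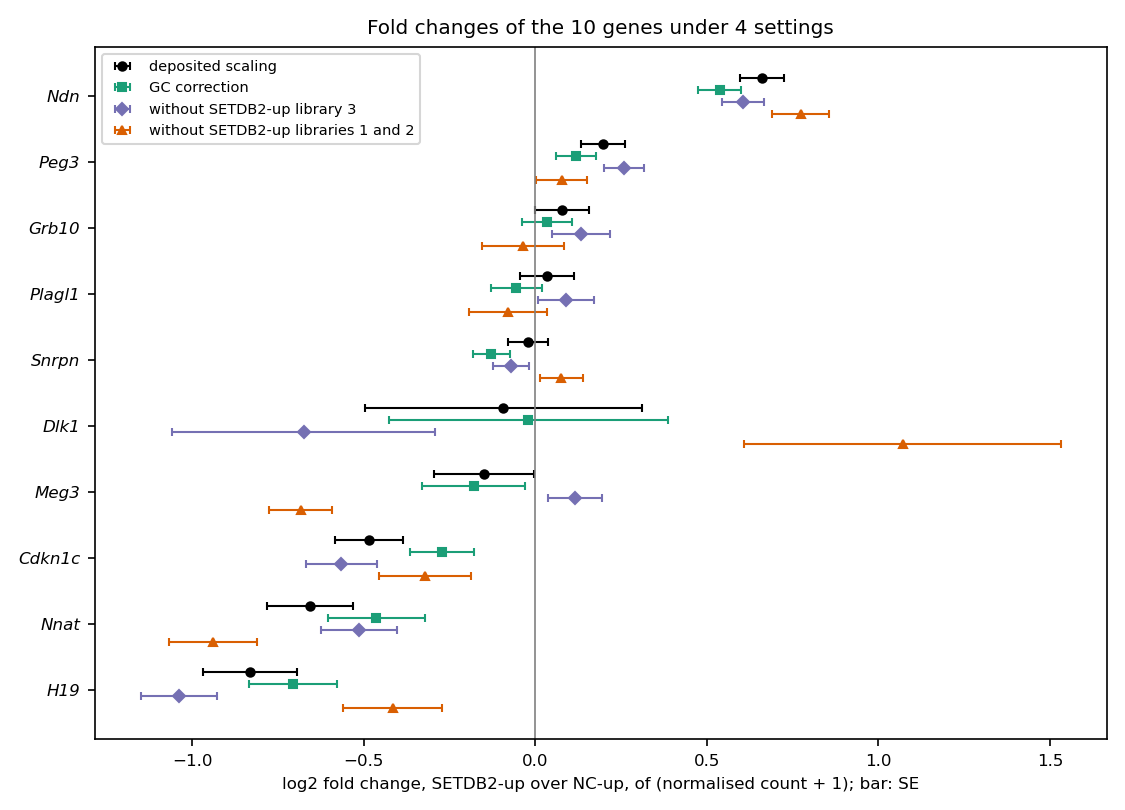
Log2 fold change (horizontal axis, SETDB2-up over NC-up, ± SE) of the 10 genes with the deposited scaling (black), with a GC correction (green), without SETDB2-up library 3 (violet) and without SETDB2-up libraries 1 and 2 (orange). Ndn lies between 0.54 and 0.77, H19 lies between -1.04 and -0.42, and Meg3, Dlk1, Snrpn, Grb10 and Plagl1 change side.

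The partners of these genes in growth control were read from a list of 16, all tested: none rose, 2 fell and 14 did not pass the test, with a median log2 fold change of -0.09. Among all tested genes 7.71% rose and 8.71% fell. Notch1, the receptor whose ligands Dlk1 resembles, fell (-0.45 ± 0.07, adjusted p = 0.000215), as did Irs2, an adaptor of the insulin receptor (-0.20 ± 0.07, adjusted p = 0.0485). After the GC correction Notch1, at 57.1% GC, remained lower (-0.29, adjusted p = 0.016), and Irs2, at 56.6% GC, did not pass (-0.05, adjusted p = 0.671). Irs2 also missed the threshold without NC-up library 1 (-0.21) or 2 (-0.14), without SETDB2-up library 1 (-0.17) or 2 (-0.22), and without both of the latter (-0.20). The receptors that Grb10 binds were at 0.05 ± 0.08 for Insr and 0.14 ± 0.07 for Igf1r, and the kinase Cdk2, which Cdkn1c inhibits, at -0.14 ± 0.18, all short of the test.

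Of a list of 15 genes drawn up for the maintenance and reading of imprints, 13 were tested: 2 rose, 2 fell and 9 did not pass, with a median of 0.06. Here too the shares over all tested genes were 7.71% rising and 8.71% falling. Zfp445, a zinc-finger protein that binds imprint control regions, rose (0.27 ± 0.07, adjusted p = 0.0146), as did Smchd1, a chromatin protein of the silent X chromosome and of imprinted clusters (0.43 ± 0.09, adjusted p = 0.0032). Trim28, the corepressor that those zinc-finger proteins recruit, fell (-0.28 ± 0.06, adjusted p = 0.00515), as did Ehmt2, a histone methyltransferase (-0.21 ± 0.06, adjusted p = 0.022). Their GC content lay toward the ends of the trend, Zfp445 at 43.3% and Smchd1 at 42.2% GC, Trim28 at 59.6% and Ehmt2 at 60.8%. None passed after the GC correction, with log2 fold changes of 0.13 for Zfp445, 0.27 for Smchd1, -0.07 for Trim28 and 0.03 for Ehmt2 (adjusted p from 0.0869 to 0.774), and none without SETDB2-up libraries 1 and 2 (0.09, 0.46, -0.21 and -0.14 in the same order). Zfp445 also missed the threshold without SETDB2-up library 1 (0.23) or 2 (0.22) or NC-up library 2 (0.27) or 3 (0.26), and Ehmt2 without SETDB2-up library 1 (-0.18) or 2 (-0.21) or NC-up library 2 (-0.19). Zfp57 was at -0.08 ± 0.33 and the insulator protein Ctcf, which binds the H19 control region, at 0.00 ± 0.10, both short of the test.

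Each list of markers of the ganglion's cell types had counts in every library. The calls below stand beside 7.71% of all tested genes rising and 8.71% falling. Of 15 sensory neuron markers 1 rose (Scn9a, a pain-related sodium channel) and 1 fell (Rbfox3, the neuronal splicing factor NeuN), and their sums were 499146 to 519605 normalised counts in SETDB2-up and 501551 to 527836 in NC-up. The median log2 fold change of that list was -0.01. After the GC correction Scn9a did not pass (0.11, adjusted p = 0.218), while Rbfox3 did (-0.18, adjusted p = 0.0395). Scn9a also missed the threshold without SETDB2-up library 1 (0.22) and without SETDB2-up libraries 1 and 2 together (0.11). Of 8 satellite glia markers 1 rose and 1 fell (median 0.06), and of 9 Schwann cell markers 1 rose and 4 fell (median -0.12). Among 10 fibroblast markers, Col1a1 fell (-0.55, adjusted p = 0.000193), Col1a2 fell (-0.35, adjusted p = 0.00111) and Ogn rose (0.52, adjusted p = 3.41e-05), and all 3 passed after the GC correction too. Every gene of the deposited data has at least 33 reads over the 6 libraries, so none of these markers could be at 0 in all of them. Of 8 endothelial markers 2 fell, of 8 mural cell markers 1 rose, and of 8 macrophage and 6 central nervous system markers none passed the test. All 5 tested keratinocyte markers fell, and 1 of 5 erythrocyte markers fell. The counts do not show which of these cells held each imprinted RNA.

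Over the 12240 genes with a mean of at least 100 normalised counts, likeness to a gene was measured as the root mean square difference of log2 values, each centred on its own mean over the 6 libraries. The difference between the groups was left in, so genes near a called gene have a similar fold change largely by construction. Likeness therefore does not show a shared cell type or regulation. The nearest to Ndn were Timm8a1 (0.0727), Tmed2 (0.081) and C130083M11Rik (0.081). The nearest to H19 was Loxl1 (0.0644), followed by Shb (0.127) and Pcsk2os1 (0.129). Nnat had Prim1 (0.0925), Fbln1 (0.113) and B230344G16Rik (0.118) nearest to it. Peg3 and Cdkn1c had closer neighbours: Dennd4a (0.0209), Mycbp2 (0.0226) and Asb7 (0.0232) for Peg3, and Mettl9 (0.0412), Frat2 (0.0481) and Trir (0.0493) for Cdkn1c.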

How the data were processed

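Bulk messenger RNA of trigeminal ganglion was measured in 6 libraries, 3 SETDB2-up and 3 NC-up. Libraries were strand-specific and made from poly(A)-selected RNA, per the labels' protocols. The submitters' processing notes name FastQC, HISAT2 and GRCm38 without versions. For the counter, its strand setting, the annotation and the filter, the sources used here give nothing. The deposited values are a normalised signal, read counts that the authors divided by 1 factor per library: 100% of values, divided by their library's step, were whole reads within 0.001 read, and column medians were 415 to 419.9. Read totals cover the 16415 listed genes only, whose smallest sum over the libraries is 33 reads.

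The main test was limma 3.58.1 (R 4.3.3) with a mean-variance trend on log2(value + 1), over 16387 genes with at least 1 in at least 3 libraries (28 removed). Adjustment was Benjamini-Hochberg, with a threshold of 0.05. Fold changes on this scale understate those of low genes. GC content and exon length came from GENCODE transcripts of GRCm38, found for 15541 genes (94.7%).

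The 17 alternatives were CPM scaling, a pseudocount of 0.1, no filter, a filter of 10, edgeR 4.0.16 with TMM or RLE factors and DESeq2 1.42.0 on the recovered reads, the replicate number as a block, a GC correction (loess, span 0.5) without and with that block, each library left out, and SETDB2-up libraries 1 and 2 left out together. In that last setting the spread rests on NC-up and the lone library is assumed to vary like it. The fits were tested on simulated data. All 10 genes are named; of other imprinted genes, those past the threshold or in the same cluster; of marker lists, at most 3 by smallest p, beside counts; and the 3 genes most like each member that passed. The 10 genes and all lists were chosen with earlier results of these data known. Fold changes have no correction for cell composition.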

Additional observations from a re-analysis of the deposited data

How the results depend on the processing

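Of 170 values of the 10 genes under the alternatives, 142 kept their direction and side of the threshold, 11 lost a call, 3 gained one and 14 changed sign; of 491 values of the other named imprinted genes, these numbers were 420, 47, 7 and 17. None of the 31 changes of sign was past the threshold. Scaling, pseudocount, filters, edgeR and DESeq2 left 2 rises and 3 falls among the 10 genes. With the GC correction 1 rose and 1 fell, 0 of the other imprinted genes rose, and 946 of all genes passed, of 15513 with a GC value. With the replicate block and GC correction 5 of the 10 fell, Snrpn (-0.13, adjusted p = 0.0142) and Meg3 (-0.18, adjusted p = 0.0294) included, while Ndn and Peg3 rose. Of the others 2 rose and 7 fell. In that setting 809 of all 15513 genes rose and 1051 fell. Without SETDB2-up libraries 1 and 2, 1 of the 10 and 0 of the others rose, and 540 of all genes passed. Leaving out single libraries gave 1 to 2 rises among the 10, 2 to 7 rises and 2 to 4 falls among the others, and 1093 to 3333 genes in all: 1093 without SETDB2-up library 1, 1573 without SETDB2-up library 2 and 1611 without NC-up library 2.

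Signs changed for Dlk1 under edgeR TMM (0.10), edgeR RLE (0.11) and DESeq2 (0.10). Under the GC correction without and with the block, Plagl1 was at -0.055 and Tssc4 at 0.045. Leaving out single libraries gave -0.68 to 0.23 for Dlk1, -0.34 to 0.12 for Meg3, -0.072 to 0.029 for Snrpn, -0.091 to 0.015 for Snurf, -0.040 to 0.047 for Snhg14, -0.078 to 0.16 for Mkrn3, -0.0087 to 0.44 for Zim1, -0.45 to 0.090 for Kcnq1, -0.12 to 0.017 for Cobl and -0.27 to 0.10 for Rtl1. Without SETDB2-up libraries 1 and 2, Dlk1 was at 1.07, Grb10 at -0.035, Plagl1 at -0.080, Snrpn at 0.075, Snurf at 0.062, Snhg14 at 0.073, Mkrn3 at -0.11, Kcnq1ot1 at -0.38 and Tssc4 at 0.041. The causes were not tested.

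Libraries of the same number correlated at 0.0862, 0.114 and 0.0867 in their deviations from group means over 12241 genes, each best with its own number, a hint from the data and not from the design. With the number as a block, 3618 genes passed in all, and of the 52 other imprinted genes 8 rose and 6 fell. Dlk1 had 265 reads in all and a standard error of 0.40. Tspan32 gave no value under 2 alternatives.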
